A study of Homo sapiens with 22 samples.

Results

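The WT1 gene and its surroundings were examined in peak lists from K562 cells for the histone mark H3K4me3 and for captured, tagged WT1 protein. The members are the peaks of 13 lists that overlapped chromosome 11 between 32.36 and 32.51 Mb on hg19, a window of 150 kb. In that window, WT1 spans 32.409 to 32.457 Mb and is read from right to left, so its start is the right end. The gene's ends were known to the nearest kb only. The window held 105 peaks of 1311182 in all lists, of which 84 came from captures of biotinylated protein and 21 from H3K4me3.

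K562 is a human leukaemia line, and here every sample stably carried BirA, a bacterial ligase that adds biotin to a tagged protein, from the plasmid pEF1aBirAv5-neo. The -KTS cells (2 capture and 3 H3K4me3 lists) also carried pEF1a-Flagbiotin-(WT1+17AA/-KTS)-puro, and the +KTS cells (3 capture and 2 H3K4me3 lists) carried pEF1a-Flagbiotin-(WT1+17AA/+KTS)-puro. Untagged cells (3 capture lists) carried the ligase alone and show what the streptavidin beads hold without a tagged protein. The 5 H3K4me3 lists all came from cells with a WT1 transgene, and whether each line was 1 clone is not given in the sources used here. No label states whether the replicates were grown apart, and the p-values therefore reflect library-to-library spread that may be technical alone. Peak names in the -KTS lists include "pooled", so each may join several libraries, while the tests and SDs below treat these lists as separate. In the lists of +KTS capture replicate 3, untagged replicate 3 and H3K4me3 +KTS replicate 2, the date code in the peak names differs from that in the list's name. These lists are given under the samples GEO records for them, and that assignment was not tested. Lists held from 101 to 743 peaks in untagged captures, 3245 to 543203 in tagged captures and 27341 to 53149 for H3K4me3.

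WT1 encodes a zinc-finger transcription factor needed for the development of kidney and gonad, and it is expressed in many acute leukaemias and in leukaemia lines. Alternative splicing puts a lysine, a threonine and a serine, KTS in single letters, between the last zinc fingers. The -KTS form binds GC-rich DNA well and the +KTS form less well. WT1 has long been described as acting on its own promoter. H3K4me3 is laid down around the starts of genes that are being transcribed or are ready to be.

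The sequence before the gene's start shows what kind of promoter is in question. RefSeq (build GRCh38.p14) lists 4 starts of WT1, and the bases shown are the 250 before the outermost one, on the minus strand at chr11:32435540-32435789. They were not placed on the peaks, which are on hg19. Capitals mark the single match to GGGCGG, the core of a GC box (read here from the other strand), and the single match to TCCTCC, a short repeat that WT1 has been reported to bind.

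WT1 promoter: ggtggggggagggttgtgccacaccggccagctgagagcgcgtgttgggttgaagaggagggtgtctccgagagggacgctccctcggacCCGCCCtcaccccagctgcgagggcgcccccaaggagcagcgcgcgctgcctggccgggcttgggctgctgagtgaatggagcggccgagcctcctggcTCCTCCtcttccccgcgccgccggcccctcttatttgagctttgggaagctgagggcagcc

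This stretch is 70.4% G and C, against a median of 58.0% over 35116 promoter windows of the same length, of which 19.9% were at least as rich. It holds 19 CG pairs, and 34.6% of the windows held as many or more. Both strands were searched for each motif. GGGCGG was found in 42.6% of all windows and TCCTCC in 31.8%. GCGTGGGNG and GCGGGGGCG, forms of the site shared by WT1 and the EGR proteins, had no match in these letters, and occurred in 2.51% and 4.72% of windows. TATAAA had no match either and occurred in 10.7%. The antisense gene WT1-AS, a non-coding RNA, is read away from WT1, and the nearest of its starts lies 21 bp from this one. The other WT1 starts lie 1.5, 4.73 and 35.1 kb farther into the gene on GRCh38. The bases before those starts are 53.6%, 64.0% and 46.8% G and C.

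H3K4me3 was found within 1 kb of the start of WT1 in 4 of 5 lists of the mark, and within 5 kb in all 5. The exception at 1 kb was -KTS replicate 1, whose nearest peak lay 1002 bp away. With the start known to 1 kb, that cannot be told apart from a peak within 1 kb. The peaks of the 5 lists merged into 1 region at chr11:32454440-32457753, 3.31 kb wide, which reached 2.56 kb into the gene and 0.753 kb beyond its start. Only 16.2% of the 72310 merged H3K4me3 regions of the whole series were found in all 5 lists. In the 150 kb window this was the sole H3K4me3 region shared by lists, and the other 9 regions were found in 1 list each.

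**Figure D1:**
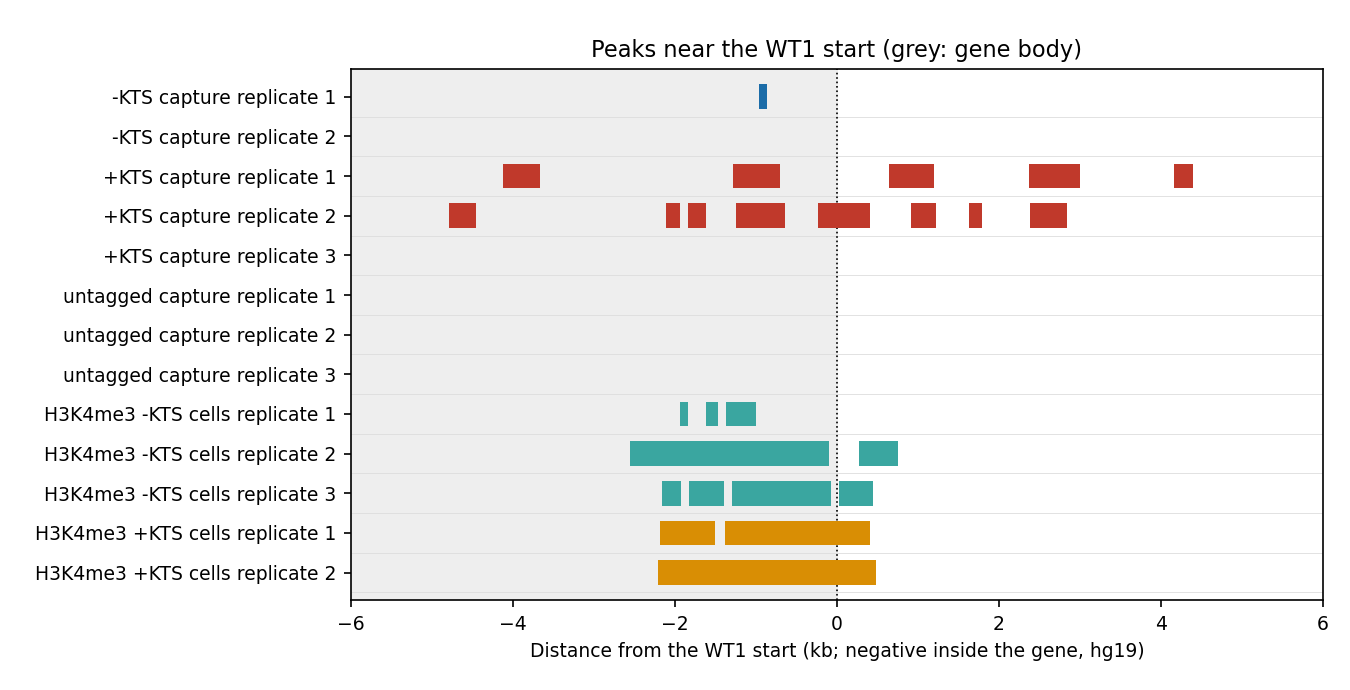
Peaks of the 13 lists within 6 kb of the WT1 start, with distance from the start in kb on the horizontal axis (negative inside the gene, shaded grey) and 1 row per list. H3K4me3 peaks of all 5 lists lie on the gene side next to the start. In 4 lists they pass it, by less than the 1 kb to which the start is known. Captured WT1 shows 1 peak in -KTS replicate 1, 5 in +KTS replicate 1 and 8 in +KTS replicate 2 within 5 kb.

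The lists differed in how the mark was divided. In -KTS cells, replicate 1 had 3 narrow peaks that ended 1.0 kb short of the start, at 32455063 to 32455155, 32455379 to 32455530 and 32455633 to 32455998. Replicate 2 had a peak at 32454440 to 32456898 and another at 32457276 to 32457753. Replicate 3 had 4 peaks, the widest at 32455699 to 32456928 and the outermost at 32457021 to 32457441. In both of these lists a gap between peaks fell at or near the start.

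In +KTS cells, replicate 1 had peaks at 32454811 to 32455495 and at 32455615 to 32457410, and replicate 2 had a single peak of 2696 bp at 32454787 to 32457482. Both +KTS lists thus covered the start itself, and no -KTS list did. Since the start is known to 1 kb, a peak that ends 20 or 102 bp from it, as in -KTS replicates 3 and 2, cannot be told apart from one that covers it. Within 1 kb on either side of the start, the mark covered 0, 1376 and 1349 bp in the -KTS lists and 1410 and 1482 bp in the +KTS lists. Replicate 1 of the -KTS cells alone stands low, and the other lists lie close together. Its value of 0 depends on where the start is placed. Within 5 kb of the start it was again lowest, with 611 bp against 2314 to 2937 bp in the other lists.

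The score of a peak is the authors' own value and ranks peaks within a list only. The best peak of the WT1 start scored 99, 514 and 712 in the -KTS lists and 1075 and 386 in the +KTS lists. Among the 11693 regions of all 5 lists, the medians of the best score were, in the same order, 162, 806, 767, 1043 and 571. The WT1 start therefore lay under the median in 4 lists and just over it in +KTS replicate 1.

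Its breadth stood out more than its score. The median region of all 5 lists was 1573 bp wide, with quartiles of 1122 and 2106 bp, and 3.69% were at least as wide as the WT1 region of 3314 bp. The length covered within a list gave the same picture in 4 of 5 lists. It was 2937 and 2314 bp in -KTS replicates 2 and 3 and 2481 and 2696 bp in +KTS replicates 1 and 2, and from 2.21% to 4.99% of the regions covered at least as much. In -KTS replicate 1 it was 611 bp, and 41.8% of the regions covered as much or more.

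**Figure D2:**
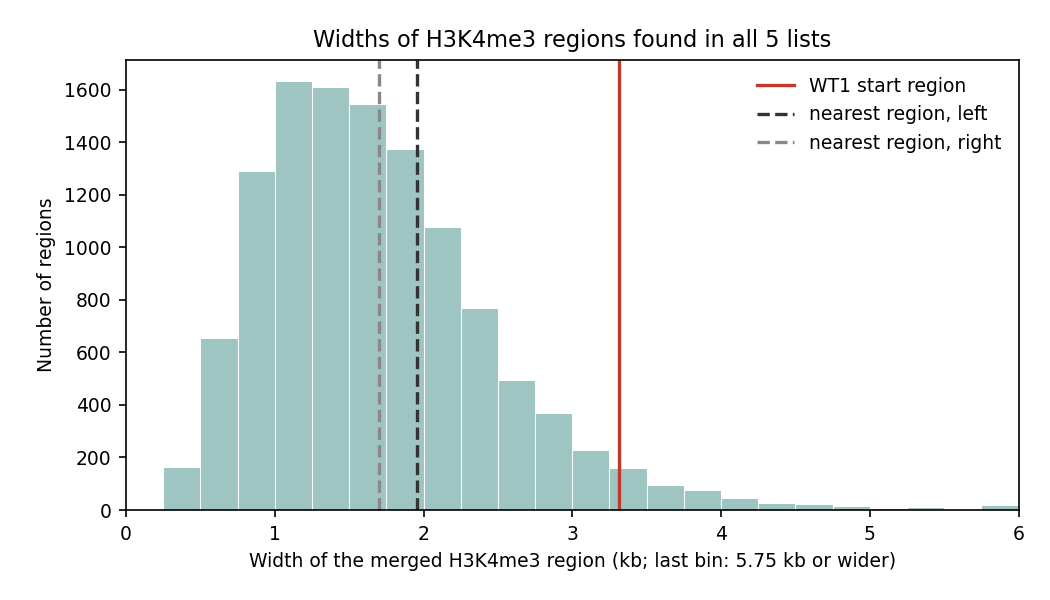
Widths of the 11693 merged H3K4me3 regions found in all 5 lists, in bins of 250 bp, with the width in kb on the horizontal axis and the number of regions on the vertical axis. Lines mark the WT1 start region at 3314 bp and the nearest such regions on its left (1959 bp) and right (1701 bp), and the last bin also holds all wider regions.

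The nearest other regions of this kind lay outside the window on both sides. How far apart such regions usually lie was not measured, so these distances do not show that the WT1 start is isolated. To the left the nearest region of all 5 lists lay 615.3 kb away, at chr11:31837206-31839164, and to the right 147.5 kb away, at chr11:32605289-32606989. In RefSeq's order of genes (GRCh38.p14), the protein-coding genes next to WT1 are RCN1 on the left and EIF3M on the right. This order does not place either region at a gene. Which genes these regions belong to was not tested, since gene positions on hg19 were not used here. For the same reason, H3K4me3 at marker genes of K562 was not checked.

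Beyond the start, H3K4me3 was called elsewhere in the gene mainly in 1 library of -KTS cells. The number of such peaks was 0, 6 and 1 in the -KTS lists and 0 and 1 in the +KTS lists. Replicate 2 of -KTS cells had them at 32410537 to 32410800, 32413456 to 32413612, 32417792 to 32418012, 32439040 to 32439257, 32442682 to 32442991 and 32449442 to 32449588. They were 147 to 310 bp wide and scored 126 to 454. Replicate 3 had 1 peak of 125 bp at 32450041 to 32450165, with a score of 111.

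None of these 7 peaks was found in another H3K4me3 list, but the one at 32417792 overlapped a capture peak of +KTS replicate 1 and the one at 32450041 overlapped capture peaks of +KTS replicates 1 and 2. The transgene carries WT1 coding sequence, so DNA from it would be placed on the exons of the gene and not on its introns. Whether these narrow peaks coincide with exons was not tested, because exon positions on hg19 were not used here. The start region reached past the outer end of the gene, as placed here, in 4 of 5 lists. It did so by 0.753 and 0.441 kb in -KTS replicates 2 and 3 and by 0.41 and 0.482 kb in +KTS replicates 1 and 2. These lengths are all under the 1 kb to which that end is known, so passing it cannot be told apart from stopping at it. The part of the transgene in the marked stretch inside the gene was not tested. Outside the start region, +KTS replicate 2 had a peak in the gene at 32425090 to 32425315 and another beyond the gene's far end at 32387137 to 32387463. Both overlapped a capture peak of +KTS replicate 1.

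The numbers of H3K4me3 peaks in the window were 3, 8 and 5 for the -KTS replicates and 2 and 3 for the +KTS ones. The groups met at 3 peaks, and the mean was 5.33 ± 2.52 (SD, n = 3) against 2.5 ± 0.707 (SD, n = 2). The difference in mean log10(number + 1), +KTS minus -KTS, was -0.24 (exact two-sided permutation p = 0.3 over 10 splits). The -KTS lists stop at a score of 50 and the +KTS lists at 13. With a score of at least 50 required everywhere, the numbers were 3, 8 and 5 against 2 and 2, and the groups no longer met. The difference in number was then -0.30 (exact permutation p = 0.2). Covered length went the other way, with 0.611, 4.254 and 2.439 kb in -KTS lists and 2.481 and 3.249 kb in +KTS lists. This difference of 0.430 kb had an exact permutation p of 0.7, and without -KTS replicate 1 it was -0.482 kb (exact p = 1.0). With 3 lists against 2, the smallest p of this test is 0.1, so neither measure could have passed the threshold of 0.05. Windows of 150 kb across the genome with at least as many peaks made up 22.5%, 7.84% and 12.6% in the -KTS lists and 28.9% and 35.5% in the +KTS lists.

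Captured WT1 gave peaks in the window in 4 of 5 libraries, with only a single peak in +KTS replicate 3. Of the -KTS lists, only replicate 1 had any. The -KTS lists had 13 and 0 peaks and the +KTS lists had 44, 26 and 1. The untagged lists had 0, 0 and 0. The untagged lists are so short that just 3.19%, 0.475% and 1.28% of 150 kb windows held any of their peaks. For -KTS replicate 2, which also had no peak here, that share was 11.7%. An empty window in these 4 lists is thus the usual case.

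The excess in tagged cells did not pass a test. Tagged libraries exceeded untagged ones by 0.91 in mean log10(number + 1), and the exact permutation p was 0.0893 (two-sided, 56 splits). For +KTS alone the difference was 1.13 (exact p = 0.1, the smallest that 3 against 3 allows). Between isoforms, +KTS exceeded -KTS by 0.56 (exact p = 0.5, where 3 against 2 allows 0.1 at the least), and this turned to -0.018 without -KTS replicate 2 (exact p = 1.0), so 1 library set the direction. The comparisons with untagged cells share the same 3 untagged lists. The lowest score in any list was 50 for -KTS cells and 13 for the others. With a score of at least 50 required everywhere, -KTS replicates had 13 and 0 peaks and +KTS replicates 20, 17 and 1.

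**Figure D3:**
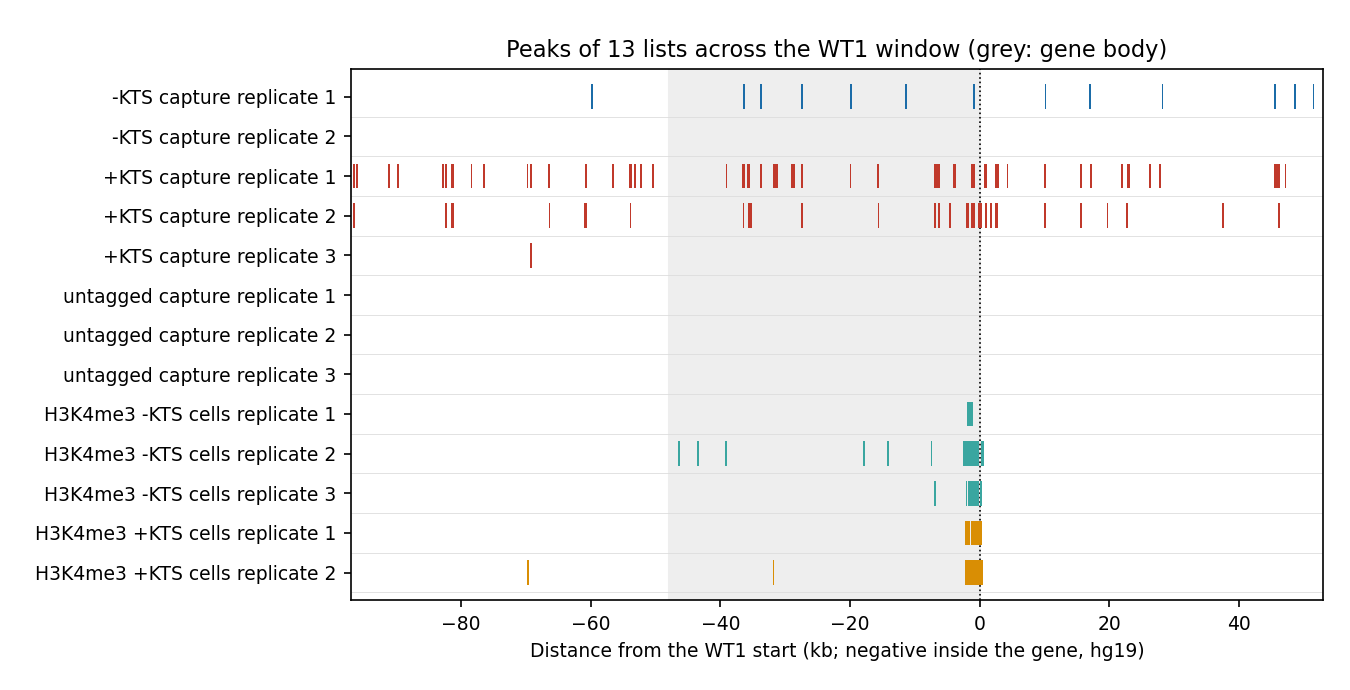
Peaks of the 13 lists over the 150 kb window, with distance from the WT1 start in kb (negative toward and beyond the gene's far end, gene body grey) and 1 row per list. Peaks narrower than 0.25 kb are drawn at that width, and capture peaks of -KTS replicate 1 and +KTS replicates 1 and 2 lie both inside and outside the gene, while H3K4me3 gathers at the start.

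Set against the length of each list, the window was no more than moderately rich in capture peaks. The density of the window, relative to the density of the same list over chromosomes 1 to 22, X and Y, was 1.73 and 0 in -KTS and 1.67, 1.44 and 0.582 in +KTS. In the lists with 13, 44 and 26 peaks, 17.2%, 21.6% and 22.2% of all 150 kb windows held at least as many. For +KTS replicate 3, with its single peak at 32387587 to 32387863, the share was 65.2%. The difference in log10(ratio + 1) between +KTS and -KTS was 0.12 (exact permutation p = 0.7), and -0.099 without -KTS replicate 2 (exact p = 0.5). Between tagged and untagged libraries it was 0.29 (exact p = 0.0893). At the density of their own list, untagged replicates 1, 2 and 3 would hold 0.036, 0.0049 and 0.0151 peaks here. For -KTS replicate 2 this number is 0.157. A ratio of 0 was thus nearly fixed by length in these lists, and differences that include them still depend on it.

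**Figure D4:**
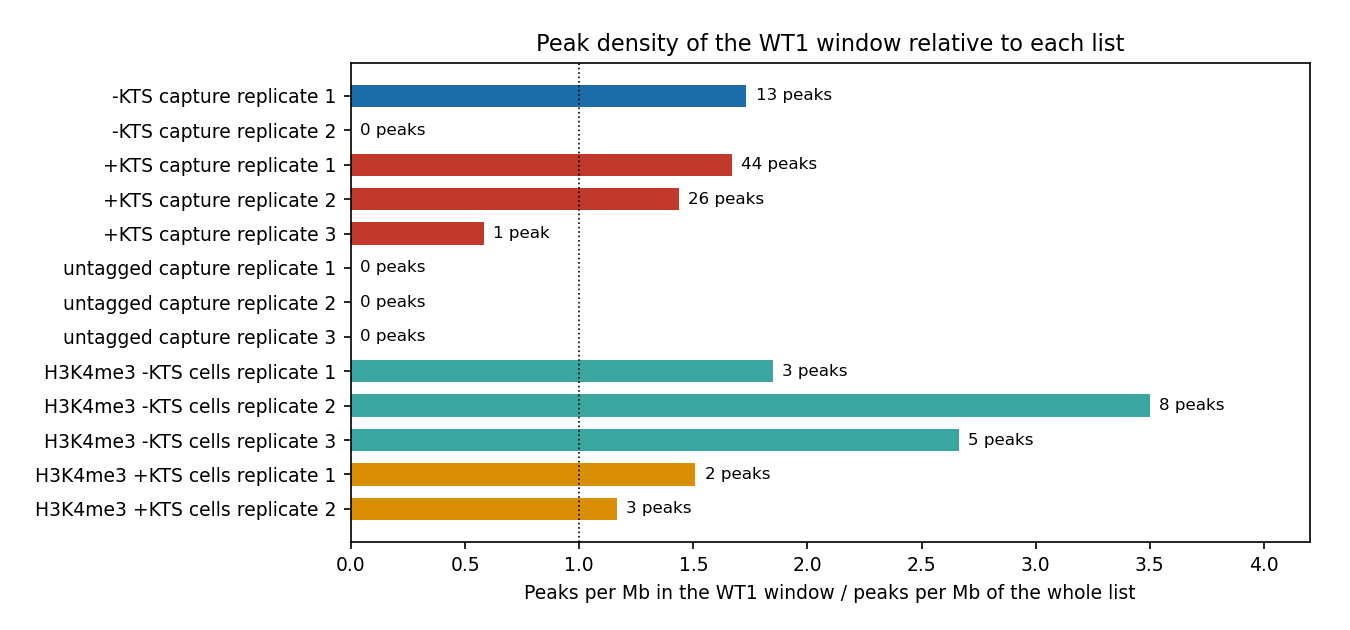
Peaks per Mb in the WT1 window divided by peaks per Mb of the whole list, 1 bar per list, with the number of peaks printed at each bar and a dotted line at a ratio of 1. The 5 H3K4me3 lists and 3 of 5 tagged capture lists lie above 1, and the untagged lists are at 0.

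The median score of capture peaks in the window lay under that of the whole list wherever the window held more than 1 peak. It was 70 against 101 in -KTS replicate 1, and 46 against 58 and 58 against 60 in +KTS replicates 1 and 2. The single peak of +KTS replicate 3 scored 69, against a list median of 68. The best score was 152 in -KTS replicate 1, 122 and 149 in +KTS replicates 1 and 2 and 69 in +KTS replicate 3. Of all peaks of these lists, 8.79%, 6.44%, 4.41% and 48.6% scored that high or higher. Among the 3245 best peaks of each list, a number set by the shortest tagged list, the window held 0 peaks of any capture list. A list of that length leaves most windows empty, since 11.7% of 150 kb windows held a peak of -KTS replicate 2. This 0 therefore says little about rank. Widths in the window were near those of the lists, with medians of 108 bp in -KTS replicate 1 and 273.5 and 252.5 bp in +KTS replicates 1 and 2, against 133, 301 and 252 bp over the whole lists.

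Near the start, the libraries with long lists had capture peaks and the others had none. In -KTS replicate 1 there was 1 peak, at 32456033 to 32456135, which was 103 bp wide and scored 92, and 66.0% of that list scored as high. In +KTS replicate 1 the peaks next to the start lay at 32455715 to 32456291 and 32457643 to 32458193, with scores of 20 and 37. In +KTS replicate 2 a peak at 32456769 to 32457406 covered the start and scored 149, the best of the window in that list.

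The latter is the one capture peak of any list that covers the start as placed here. The nearest peaks of +KTS replicate 1 and -KTS replicate 1 lay 642 and 865 bp away. With the start known to 1 kb, these cannot be told apart from peaks that cover it. Within 1 kb of the start, 3 of 5 tagged lists and 0 of 3 untagged lists had a peak, or 2 of 5 tagged lists with a score of at least 50 and 0 with equal lists. Of the 11693 H3K4me3 regions of all 5 lists, the -KTS captures overlapped 33.0% and 10.0%. The +KTS captures overlapped 65.7%, 88.4% and 1.92%, and the untagged ones 0%, 0% and 0.0428%. The contrast with untagged lists is thus not particular to WT1. The share of gene starts with a peak within 1 kb was not measured. The nearest peak lay 457 kb from the start in -KTS replicate 2 and 69.1 kb away in +KTS replicate 3. In untagged replicates 1, 2 and 3 it lay 3.43, 16.4 and 1.387 Mb away.

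Peaks of +KTS replicate 2 were crowded around the start. Within 5 kb of it there were 8, and 3.31% of 10 kb windows across the genome held that many. The count was 5 in +KTS replicate 1 and 1 in -KTS replicate 1, with shares of 13.6% and 29.9%. Measured around the middle of the H3K4me3 region, replicate 2 had 8 peaks, against a median of 3 around the 11693 regions of all 5 lists, and 9.66% of those had as many. For +KTS replicate 1 the count of 4 equalled the median, and for -KTS replicate 1 the count of 1 did so too. The crowding was thus seen in 1 of 3 +KTS libraries.

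Overlap with the H3K4me3 region can be set beside the general rate of each list. The region was overlapped by 1 peak of -KTS replicate 1, 2 of +KTS replicate 1 and 4 of +KTS replicate 2, and by none of -KTS replicate 2, +KTS replicate 3 or the untagged lists. Among the 11693 regions of all 5 lists, peaks of these lists lay on 33.0%, 65.7% and 88.4%, then 10.0% and 1.92%, and in untagged replicates 1, 2 and 3 on 0%, 0% and 0.0428%. A recurrent +KTS region, called in at least 2 +KTS lists and in no untagged list, lay on 58.4% of them. The WT1 start is one of these. The shares are not matched for width, and the WT1 region of 3314 bp is wider than the median of 1573 bp. Whether it is overlapped more often than regions of its width was not tested.

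Of the capture peaks in the window, 1 of 13, 3 of 44 and 4 of 26 lay on H3K4me3 of the same cells in -KTS replicate 1 and +KTS replicates 1 and 2. These are 7.69%, 6.82% and 15.4%, close to the 5.44%, 7.94% and 13% of the whole lists. Most captured sites around WT1 were therefore away from the mark, as in the rest of these lists.

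Tagged capture peaks merged into 56 regions in the window, of which 23 (41.1%) were called in at least 2 lists and 5 (8.93%) in 3. Over the whole series these shares were 51.2% and 10.4%, so recurrence at WT1 was near the general rate. Pairs of lists gave the same picture. In the window, 8 of 13 peaks of -KTS replicate 1 (61.5%) lay on a peak of +KTS replicate 1, against 66.7% of the whole list. Between +KTS libraries, 19 of 26 peaks of replicate 2 (73.1%) lay on replicate 1, against 80.8%.

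Each merged region called in 3 lists held peaks of -KTS replicate 1 and +KTS replicates 1 and 2. They lay inside the gene at 32420344 to 32420750, 32429431 to 32429715 and 32455715 to 32456362, which are 36.5, 27.4 and 0.962 kb from the start. Upstream of the gene they lay at 32466892 to 32467291 and 32502455 to 32503290, at 10.1 and 45.9 kb. In the latter, the peaks of -KTS replicate 1 (32502476 to 32502766) and +KTS replicate 2 (32503078 to 32503279) did not overlap and were joined only by the 836 bp peak of +KTS replicate 1. Their best scores in -KTS replicate 1, in order along the chromosome, were 59, 115, 92, 70 and 127. In +KTS replicate 1 they were 122, 40, 20, 109 and 45, and in +KTS replicate 2 they were 19, 33, 120, 73 and 73. The best of the 5 was a different region in each list.

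The region 0.962 kb inside the gene was the only one of the 5 on H3K4me3, which all 5 lists of the mark called there. Over the whole series, 20.8% of regions called in at least 3 tagged lists lay on H3K4me3 of any list. Recurrent regions of an isoform, called in at least 2 of its lists and in no untagged list, numbered 0 for -KTS and 20 for +KTS. The -KTS number could not exceed 0, since replicate 2 had no peak in the window. The +KTS number was 0 without replicate 1, 1 without replicate 2 and 19 without replicate 3, so it rested on the overlap of the 2 long lists.

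By position, no stretch of the window was the densest in all 3 libraries with more than 1 capture peak there. In -KTS replicate 1 they had densities of 125 per Mb in the gene, 113 in the flank upstream of the start and 20.4 in the flank beyond the far end. In +KTS replicate 1 these were 292, 226 and 367 per Mb, and in +KTS replicate 2 they were 229, 189 and 122. The order was gene, upstream flank, far flank in -KTS replicate 1 and +KTS replicate 2, while in +KTS replicate 1 the far flank was densest. The gene is 48 kb long and the upstream flank 53 kb. Each held 6 peaks of -KTS replicate 1, so the gene's lead there came from length alone. For +KTS replicate 2 the gene held 11 peaks and the upstream flank 10. The peak on the start was counted in both stretches. These differences between stretches were not tested. In the H3K4me3 lists, 1 peak of 21 lay wholly outside the gene and the start region.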

How the data were processed

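Chromatin of K562 cells was crosslinked with 1% formaldehyde for 10 minutes. Captures used streptavidin beads and more cells than the H3K4me3 antibody did, per the labels' protocols. Of 22 libraries, 13 had a list and were used, and 9 inputs were not analysed here. Bowtie2 2.2.7, MACS2 2.1.1.20160226 and the build hg19 are named in the notes (per the submitters' processing notes). The control, filters and any pooling are not stated there. Peak names in the lists from -KTS cells include "pooled", without saying of what, so each may join several libraries. The authors deposited for each peak a position and a whole-number score, whose lowest value was 50 in lists from -KTS cells and 13 in the others. Read depth is unknown, so the lists' lengths cannot be set against it.

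Peaks were counted on the autosomes and on X and Y with Python 3.11.15, numpy 2.4.6 and pandas 2.3.3, by an overlap of 1 bp, with positions given 1-based. Groups were compared with exact two-sided permutation tests of mean log10(number + 1) and, for H3K4me3, of covered length in kb. Shares of windows and regions are descriptions. Counting was checked on simulated data. Regions were named if called in at least 3 tagged capture or 2 H3K4me3 lists, with the best and nearest peaks of each list. The inner and outer H3K4me3 peaks found in 1 list fell outside that rule and were named after their values were seen. Members, lists and tests were chosen with earlier results of these data known.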

Additional observations from a re-analysis of the deposited data

How the results depend on the processing

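Under the alternatives, 95 values kept their direction and side of the threshold or stayed close to the reported value, 5 differences became 0, 11 moved and 3 changed sign. With equal lists (3245 tagged capture and 27341 H3K4me3 peaks), every difference between capture groups was 0, as were tagged lists at the start and recurrent +KTS regions. The untagged lists, with 101 to 743 peaks, were shorter than 3245 and were kept whole. An empty window is the usual case in lists of these lengths. Recurrent +KTS regions numbered 8 with a score of at least 50, 7 in the gene body alone, 0 in every replicate and 51 in any replicate, where -KTS had 13. A peak covered the start, as placed to the nearest kb, in 2 H3K4me3 and 1 tagged capture lists. Leaving out 1 library at a time moved +KTS minus -KTS from -0.018 to 1.13 for peaks and from -0.099 to 0.34 for density, H3K4me3 covered length from -0.482 to 1.34 kb, and recurrent +KTS regions from 0 to 20. Recurrent -KTS regions without a -KTS replicate could not be counted. The cause of these changes was not tested, beyond the smaller lists or numbers of libraries themselves. With the replicate block, +KTS exceeded untagged by 1.13 (exact sign-flip permutation p = 0.25, the smallest for 3 pairs). The untagged lists had 0 peaks each, so whether the numbers pair the samples could not be checked. The overlap of peaks with exons was not run.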
